A study of Homo sapiens with 6 samples.

Results

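The strong, shared IGF2BP3 clusters of HCT116 cells are described here: stretches of RNA that were densely covered in the deepest library and were also found in every other IGF2BP3 library of the series. A cluster is a stretch that the caller PARalyzer builds from reads holding T-to-C changes, the mark that a photocrosslinked 4-thiouridine (4sU) leaves in cDNA. Members were selected on read count and overlap: a cluster of the RNase I 0.05/0.05 library had to hold 100 or more reads and share 1 nt or more, on the same strand, with a cluster of each of the 4 other IGF2BP3 libraries. This gave 2923 members of 90999 clusters in that library (3.21%), and of 244645 clusters in the whole series. Strength and presence in all 5 libraries are therefore what defined them, and neither is a finding.

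All 6 libraries came from HCT116, a human colorectal carcinoma line, carrying Tet-OsTIR1-PURO (a doxycycline-driven plant F-box gene for degron work), grown with 100 µM 4sU for 15 h and irradiated at 365 nm. They differed in the antibody and in the RNase, whose doses are given in U/µL as in-lysate/on-beads. The IGF2BP3 libraries were digested with RNase I (0.05/0.05, 0.1/0.025 or 0.05/0.025) or with RNase T1 (1/1 or 0.25/0.25), and the IgG control had RNase I 0.1/0.025. The in-lysate digestion came before the precipitation and the on-beads digestion after it. Each condition was 1 library, so the values below are descriptions of these libraries, and intervals are 95% Wilson intervals that cover counting error only. The IGF2BP3 antibody also recognises some IGF2BP2, as the study found with knockout cells. Gel recovery differed too. RNase I 0.05/0.05 and RNase T1 1/1 fragments were electroeluted, while the remaining IGF2BP3 fragments came out of crushed gel pieces. Gel recovery and RNase dose cannot be told apart between the RNase T1 libraries, nor between RNase I 0.05/0.05 and the other RNase I libraries, which share the crushed gel and differ in the in-lysate dose.

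IGF2BP proteins are oncofetal RNA-binding proteins with RRM and KH domains that bind CA-rich elements of mRNA, mostly in 3′UTRs, and are known for stabilising and localising their targets. RNase T1 cleaves after G, whereas RNase I has no strong base preference.

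The cluster reads per library ranged from 182448 for RNase T1 0.25/0.25 to 2362467 for RNase I 0.05/0.05, against 324 reads in 25 clusters with IgG. Of the epithelial markers, EPCAM held 1 member, with 106 reads in the RNase I 0.05/0.05 library. KRT8, KRT18, KRT19 and CDH1 had cluster reads but held no member, VIL1, CDX1 and LGALS4 had none, and CDX2 had 5 reads, in RNase T1 1/1. The 7 markers of blood, stromal, endothelial, liver and glial cells were at 0 in the 5 IGF2BP3 libraries.

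Sequences of members with high levels in every library are shown first. For the 10 members whose lowest level over the 5 libraries was highest, the 30 nt at the middle of the longest stretch covered in all 5 libraries are printed 5′ to 3′ as RNA (GRCh38). Capitals mark CAUU or CAUA or UCAU or CAGU or CACA, words of 4 nt that hold CA, searched on the transcribed strand.
CDKN1A, chr6:36686188-36686217, + strand: guCACAggcgguuaugaaauucacccccuu
EEF2, chr19:3976443-3976472, - strand: ggagacugucccgaCACAgcgacgcucccc
TMED2, chr12:123597137-123597166, + strand: cacuaaagauUCAUUuuuguugaguccuua
KITLG, chr12:88495540-88495569, - strand: aaagagcccagaugauuccuaCAGUcccuu
PAICS, chr4:56460441-56460470, + strand: agugagggucaaauucaaCAUUauccugau
PTP4A1, chr6:63580601-63580630, + strand: uuaugugguuuauuccuucaaUCAUUucaa
HMGA1, chr6:34245944-34245973, + strand: cuguucugcccacgauccccucccccaaga
ERRFI1, chr1:8012148-8012177, - strand: aaguaaaacacuucugaccCAUAgcuCAGU
EREG, chr4:74387801-74387830, + strand: ggucuucaaccaaggcCACAUAauaaccca
LRRC59, chr17:50381468-50381497, - strand: ucacuaCACAUUccuuuagucuuccuccaa
All 10 windows lay within 3′UTR members, and 9 of 10 held at least 1 of the 5 words. CAUU and CACA stood in 4 windows each, CAUA, UCAU and CAGU in 2 each, and the C-rich window of HMGA1 held none. These windows were centred on the shared stretch after the data were seen, since the caller's mode often sat at the end of a cluster (below).

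Among clusters of 100 or more reads, 2923 of 3585 (81.5%) were found in all 4 other libraries, against 4146 of 87414 clusters (4.74%) under 100 reads. The share rose with the read count, as the plot by read class shows. It was 0.215% at 2 to 9 reads, 16.1% at 25 to 49 reads, 71.5% (69.6 to 73.4) at 100 to 199 reads and 99.5% (98.4 to 99.8) at 400 or more. Median cluster length rose over the same classes from 41 to 469 nt, and a longer cluster has more positions at which to overlap. The part of length in this rise was not tested.

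**Figure D1:**
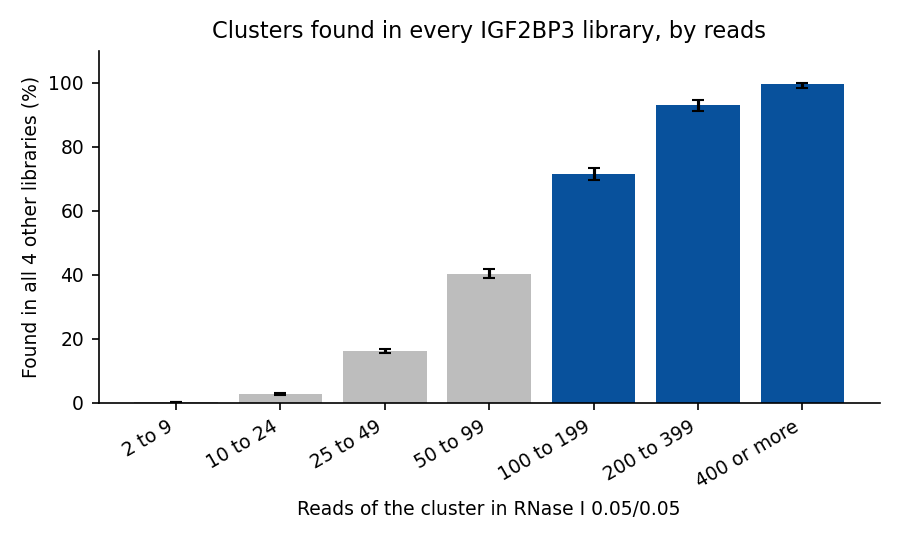
Share of RNase I 0.05/0.05 clusters that were found in all 4 other IGF2BP3 libraries (vertical axis, %), by the reads of the cluster (horizontal axis), with 95% Wilson intervals. Blue bars hold the members. The share climbs from 0.215% in the lowest class to 99.5% in the highest.

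Which library a strong cluster missed was uneven. RNase I 0.1/0.025 and RNase I 0.05/0.025 held 3576 and 3575 of the 3585 strong clusters, RNase T1 1/1 held 3479, and RNase T1 0.25/0.25, the library with the fewest reads, held 2965. Of the 662 strong clusters that were not members, 543 lacked only RNase T1 0.25/0.25, 63 lacked only the RNase T1 pair, 40 lacked only RNase T1 1/1, and 16 lacked an RNase I library. The strongest non-member lay in the 3′UTR of CYP24A1, the vitamin D 24-hydroxylase, with 699 reads, and was followed by POMK with 468, JUP with 425, RPL10P9 with 361 and PLK2 with 358. RPL10P9, a ribosomal protein pseudogene, missed RNase T1 1/1, and the others of these missed RNase T1 0.25/0.25. At the threshold itself, 30 members had 100 reads, among them those of C11orf58, CBX5 and CPNE3, and 23 clusters found in all libraries had 99, among them those of ALDH3A2, ANKH and AP3S2.

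Members were long and few of them carried much of the signal. Their median length was 261 nt (quartiles 182 and 369, range 28 to 1972), and 2045 (70.0%) spanned 200 nt or more. Their median was 195 reads (quartiles 136 and 333, range 100 to 8859), or 0.819 reads per nt. The 134 members of 1000 or more reads (4.58%) held 26.2% of all member reads, and the 10 strongest held 5.26%. Members took 40.2% of the cluster reads of the RNase I 0.05/0.05 library. The clusters that overlapped them took 50.1% in RNase I 0.1/0.025, 52.7% in RNase I 0.05/0.025, 36.3% in RNase T1 1/1 and 66.1% in RNase T1 0.25/0.25.

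CDKN1A, which encodes the CDK inhibitor p21, held the member with the most reads, 1304 nt of 3′UTR at chr6:36686051-36687354. Its reads were 8859 in RNase I 0.05/0.05, 4619 in RNase I 0.1/0.025, 3781 in RNase I 0.05/0.025, 3227 in RNase T1 1/1 and 939 in RNase T1 0.25/0.25. Per 1000000 cluster reads of the library (CPM) these were 3750, 5749, 5637, 2789 and 5147, with the lowest in RNase T1 1/1. Of its nucleotides, 1160 (89.0%) were covered in all 5 libraries, the most nucleotides of any member.

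The member of EEF2, the translation elongation factor, at chr19:3976058-3976744 ran over the end of the coding sequence and into the 3′UTR. Its reads in the same order of libraries were 5516, 2388, 1989, 2334 and 772, with 443 nt covered in all 5. TMED2, a cargo receptor of the early secretory pathway, held a member of 1240 nt with 4793, 2587, 2197, 2245 and 818 reads, of which 856 nt were covered in all 5. Neither stood below 1940 CPM in any library.

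Members on the mRNAs of a pair of growth factors and of a receptor inhibitor followed. KITLG, the ligand of the KIT receptor, held the longest member, 1972 nt, with 5227, 2175, 2057, 1879 and 673 reads. EREG, a ligand of the EGF receptor, had 2834, 1235, 990, 2559 and 356 reads in its strongest member, and its CPM was highest in RNase T1 1/1 (2211). ERRFI1, a feedback inhibitor of the EGF receptor, had 5506, 1310, 1304, 1392 and 418 reads, with a CPM of 2331 in RNase I 0.05/0.05 and 1203 in RNase T1 1/1.

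HMGA1, an architectural chromatin protein, had 5244, 2795, 2285, 1476 and 703 reads over 819 nt of 3′UTR. PAICS, an enzyme of purine synthesis, had 3388, 1742, 1379, 1607 and 727 reads, and LRRC59, an ER membrane protein, had 3001, 1306, 1113, 1237 and 330. PTP4A1, a tyrosine phosphatase, had 3877, 2415, 1982, 1577 and 1077 reads, and its CPM ran from 1363 in RNase T1 1/1 to 5903 in RNase T1 0.25/0.25. CYB5B, an outer mitochondrial membrane cytochrome, spanned the same wide range, with 4097, 2368, 2068, 1236 and 914 reads or 1734, 2947, 3083, 1068 and 5010 CPM. AKAP12, a scaffold of protein kinase A, differed among the RNase I libraries themselves, at 1460 CPM in RNase I 0.05/0.05 and 802 and 915 in the other two.

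**Figure D2:**
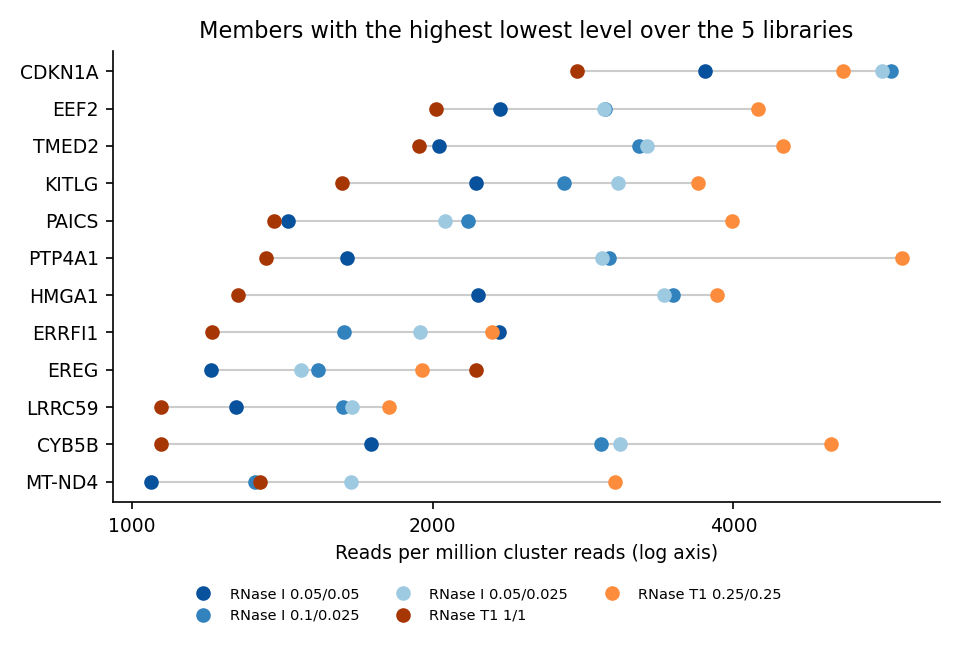
Level of the 12 members whose lowest level over the 5 libraries was highest (rows), in CPM of each library (log axis), 1 point per library. CDKN1A is the highest row by its lowest level (2789 in RNase T1 1/1), and RNase T1 1/1 gives the lowest point in every row but those of EREG and MT-ND4.

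Ranking of the members was most alike among the RNase I libraries. Over the 2923 members, Spearman's rho of read counts was 0.821 to 0.879 between RNase I libraries, 0.685 between the RNase T1 libraries, and 0.477 to 0.715 across enzymes. The points share length, since longer members collect more reads in every library, and neighbouring members may share 1 cluster of another library. Per nt the ranges were 0.825 to 0.887, 0.659 and 0.402 to 0.760.

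Presence in all 5 libraries did not mean that the same nucleotides were covered throughout. A stretch covered in all 5 existed in 2810 members (96.1%, 95.4 to 96.8), whereas 113 members had no nucleotide that all 5 covered. These stretches numbered 6372, with a median of 32 nt (quartiles 23 and 45), and made up 26.9% of member nucleotides. A further 25.3% were covered in 3 of the 4 other libraries, and 7.41% in none. RNase I 0.1/0.025 covered a median of 86.6% of a member and RNase I 0.05/0.025 82.4%, against 54.6% in RNase T1 1/1 and 34.7% in RNase T1 0.25/0.25. The common stretch was single in 1246 members, whereas 160 members held 6 or more.

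Within members, the commonly covered stretches were richer in CA-containing words than the rest of the same members. UCAU occurred 10.6 times per kb in stretches covered in all 5 libraries and 5.42 times outside them, a ratio of 1.96. The ratio was 1.86 for CAUU, 1.85 for CAUA, 1.62 for CACA and 2.00 for UCAC. Words without CA stood as high, among them UAUC at 1.89 (rank 3), AUUC at 1.79, UCUC at 1.76 and UUCC at 1.73. CAGU did not follow, at 5.34 against 6.31 per kb, a ratio of 0.847, and the G-rich word GGGG stood at 0.593.

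Base composition moved with these ratios. The stretches common to all 5 held 14.9% G and 26.2% C, against 20.6% G and 22.6% C outside, and their part in the ratios was not tested. Where only the 3 RNase I libraries were required, G was 17.97% inside and 21.6% outside. UCAU, at a ratio of 1.98, then ranked first of the 256 words of 4 nt and CAUU, at 1.81, ranked 3, while CAGU stood at 1.28. UCAC, at 1.82, ranked 2. These 3 words thus led where only RNase I coverage was required, and CAGU changed sides with the libraries required. By the rule, however, every member also had a cluster in both RNase T1 libraries, so RNase I was not seen on its own. The study itself, with all clusters of a library against an exome background, reported CAGU as the top word of 4 nt at every RNase I dose.

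The printed windows may be read against all members in the same way. In 30 nt windows centred on the longest common stretch of each of 2810 members, CAUU was present in 30.4%, UCAU in 27.7%, CACA in 21.4%, CAUA in 15.9% and CAGU in 15.8%, and any of the 5 in 67.0%. Windows of the same length at cluster midpoints held any of the 5 in 55.4% (53.6 to 57.2) of members and 57.3% of all 90999 clusters. Members were thus not richer than other clusters at their midpoint, and the higher shares stood at the common stretch.

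Positions of the caller's mode, the nucleotide of highest crosslink signal, were rarely shared. The mode of a member lay at an end of the cluster in 29.6% of members and 58.8% of all clusters. It lay within 5 nt of the mode of the strongest overlapping cluster in 14.3% of members for RNase I 0.1/0.025, 12.9% for RNase I 0.05/0.025, 6.33% for RNase T1 1/1 and 5.61% for RNase T1 0.25/0.25. In windows of 51 nt at the mode, CAUU was present in 18.6% of members and 26.6% of all clusters, and CAGU in 22.7% and 24.1%. At the midpoint of the clusters, the same windows held CAUU in 33.3% of members and 32.9% of all clusters, and CAGU in 28.5% and 26.8%. The order of both words among members thus turned with the centre of the window.

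In 6 members the mode was the same nucleotide in all 5 libraries. They are printed because they are the only such members, with the shared mode in capitals (30 nt, GRCh38).
RPL14, chr3:40458659-40458688, + strand: uugcacucaagugagGagacaggccaugcc
PABPC1P2, chr2:146588663-146588692, + strand: gcagcuaucccacaGacccagaaccgugcu
MTND6P3, chr5:94569465-94569494, - strand: ggucgugguuguaguccgugcgagaauaaU
TRN-GTT2-5, chr17:38751778-38751807, - strand: uuggugguucgagcccacccagggacgcUa
TRK-TTT6-1, chr6:27334987-27335016, - strand: uccaggguucaagucccuguccaggcgcuA
Unnamed locus, chr6:56322856-56322885, + strand: ucgauggaucaaaaccauccucugcuaucA
RPL14 is a ribosomal protein gene, PABPC1P2 and MTND6P3 are pseudogenes, and the next pair are nuclear tRNA genes. All 6 were short members of 42 to 97 nt, and in 3 of them the shared mode was the last nucleotide of the member. Their member reads in RNase I 0.05/0.05 were 166, 214, 488, 138, 119 and 328. Over the 5 libraries MTND6P3 had 488, 107, 201, 125 and 34 reads, near-equal to 491, 107, 203, 126 and 34 at the mitochondrial member of MT-TE. How reads were shared out between these was not tested. The unnamed locus had 22 IgG reads against 111 in the IGF2BP3 library of the same RNase dose.

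Most members lay in 3′UTRs. With 3′UTR given precedence over other annotation (GENCODE 44), 2366 members (80.9%, 79.5 to 82.3) overlapped a 3′UTR. The share was 72.5% of strong clusters that missed a library and 65.1% of all clusters. Where coding sequence took precedence, it was 63.4% of members, 59.5% of strong clusters that missed a library and 55.5% of all clusters. By the annotation at the mode, these were 76.3%, 69.0% and 63.8%. Weaker clusters found in all libraries (n = 4146) stood at 75.4%, 67.9% and 73.9% in the same order of rules. They were thus above the members where coding sequence took precedence. Median length was 261 nt for members, 109 nt for these weaker clusters and 54 nt for all clusters. A longer cluster can touch more annotation, and the part of length was not tested. Coding sequence without 3′UTR held 192 members (6.57%), other exons 153, introns 51, 5′UTRs 5, and 156 (5.34%) lay outside annotated genes.

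By nucleotides, 84.3% of member sequence lay in 3′UTR and 13.4% in coding sequence. A stop codon lay within 340 members (11.6%, 10.5 to 12.8), 7.10% of strong clusters that missed a library and 1.95% of all clusters. Their median lengths were 261, 233 and 54 nt, and the part of length was not tested.

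Along the 3′UTR, members lay nearer to the stop codon than clusters in general. Their midpoints were at a median of 36.8% of the canonical 3′UTR (n = 2181), or 685 nt from the stop codon, against 42.9% and 1067 nt for all clusters (n = 50855). The 3′UTRs themselves were shorter for members, with a median of 2484 nt against 3054 nt. The part of UTR length in the distance was not tested. Of 5 equal parts of the UTR, the part at the stop codon held 29.9% (28.1 to 31.9) of the members and the part at the end 11.7% (10.5 to 13.2), while for all clusters these were 25.4% and 15.9%. Strong clusters that missed a library stood at 21.8% and 15.4%. The intervals of members and of these strong clusters did not overlap in the part at the stop codon.

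**Figure D3:**
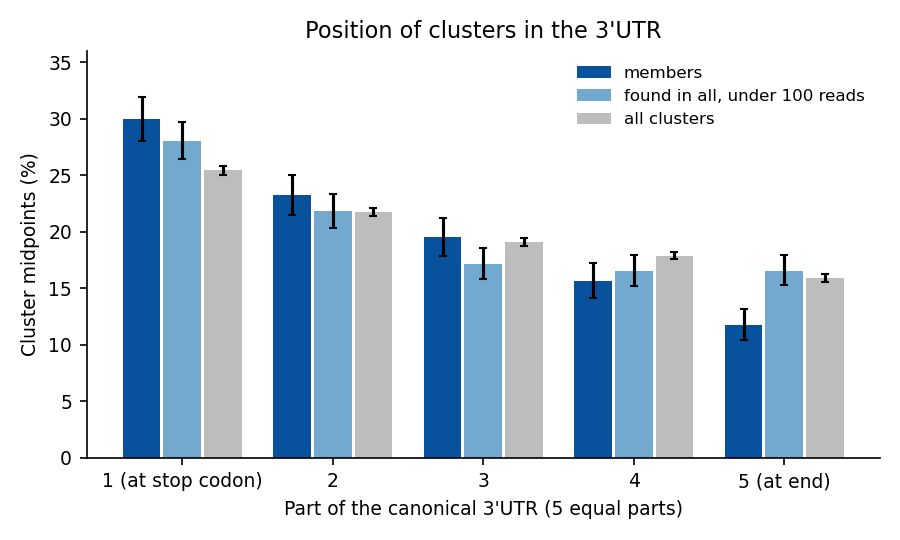
Share of cluster midpoints (vertical axis, %) in each of 5 equal parts of the canonical 3′UTR, from the stop codon to the end, with 95% Wilson intervals, for members, for weaker clusters found in all libraries and for all clusters of RNase I 0.05/0.05. Members fall from 29.9% in part 1 to 11.7% in part 5.

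Members were spread over 1662 of the 11080 genes that held a cluster on an exon (15.0%). Where each member was given to the gene of largest overlap, 978 of 1556 genes (62.9%) held 1 member, 312 held 2, 119 held 3 and 147 held 4 or more. Neighbouring members of a gene lay a median of 188 nt apart, and 468 of 1160 gaps (40.3%) were 100 nt or less, so that many stood in runs along 1 UTR.

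NFAT5, the transcription factor of osmotic stress, held the most, 16 members with 5701 reads in RNase I 0.05/0.05. Its strongest had 1614, 635, 533, 612 and 187 reads over the 5 libraries, and the others had 100 to 804 in RNase I 0.05/0.05. Members covered 50.9% of its canonical 3′UTR of 8306 nt, but only 10.2% was covered in all 5 libraries.

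Among the genes with most members, EEF2 had 6 of 7 and PABPC3 had 7 of 7 in coding sequence alone. FAT1, an atypical cadherin, likewise had 12 of its 15 members in coding sequence alone. The strongest, of 1567 nt in coding sequence, had 1670, 380, 424, 531 and 51 reads, and 14.2% of it was covered in all 5 libraries. Together the FAT1 members had 9341, 2279, 2217, 2646 and 440 reads.

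DCBLD2, a membrane receptor, held 6 members on its 3′UTR and 4 in coding sequence, and its members covered 87.5% of the 3′UTR, with 54.0% covered in all 5 libraries. The 2 strongest had 2180, 1206, 939, 2019 and 461 reads and 2171, 1728, 1395, 1073 and 557 reads. CCND1, which encodes cyclin D1, held 9 members that together covered 91.4% of a 3′UTR of 3195 nt. Its strongest had 2012, 523, 418, 1565 and 281 reads and the next 1947, 878, 771, 403 and 166, so this pair was close in RNase I 0.05/0.05 and far apart in RNase T1 1/1.

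MDM2, an E3 ubiquitin ligase, held 9 members over 51.5% of its 3′UTR. SLC38A2, a neutral amino acid transporter, held 9, of which 4 touched its canonical 3′UTR. CD44, the hyaluronan receptor, held 10, of which 7 touched its canonical 3′UTR and covered 62.6% of it. CBX5, a heterochromatin protein, held 8, over 28.9% of its 3′UTR. KITLG held 7 members with 10603 reads, and the 5 members that touched its canonical 3′UTR covered 93.3% of it. In CDKN1A, with 10030 reads, 2 members covered 98.8% of the 3′UTR and 87.4% was covered in all 5 libraries, and in HMGA1 2 members gave 99.6% and 73.4%. Over 1368 genes with a member on the canonical 3′UTR, the median covered was 23.0%, and 340 genes (24.9%) reached 50% or more.

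**Figure D4:**
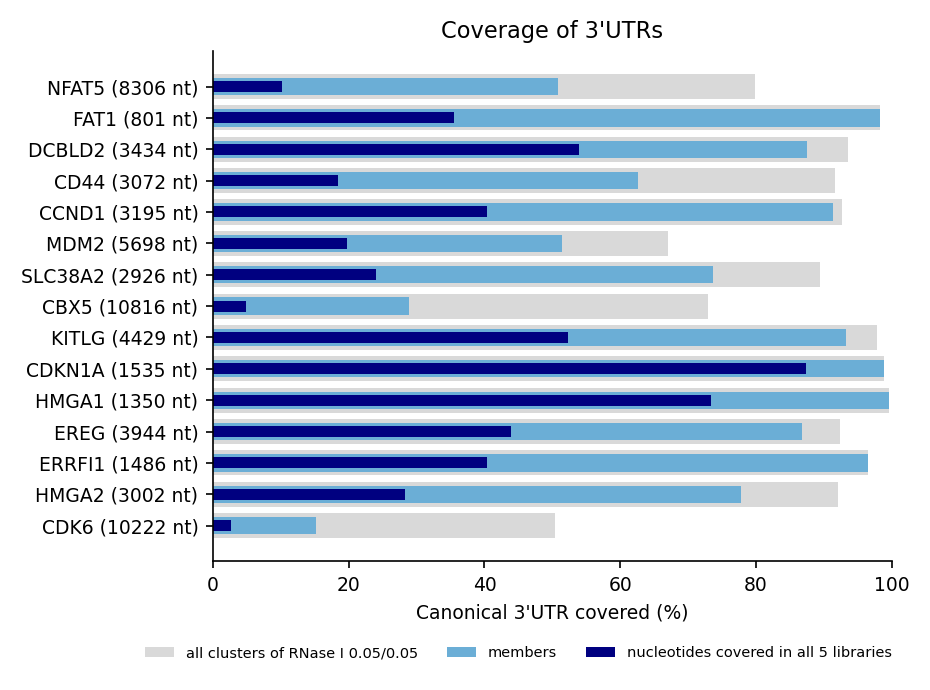
Share of the canonical 3′UTR (horizontal axis, %) covered by all clusters of RNase I 0.05/0.05 (grey), by members (light blue) and by nucleotides covered in all 5 libraries (dark blue), for genes with many members or many member reads, with the UTR length in nt. CDKN1A reaches 87.4% in all 5 libraries, and NFAT5 10.2%.

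The genes with members were compared with lists of gene groups, and the share of genes that held a member is read against 15.0% of all genes with a cluster. That share counts genes of every type. Of protein-coding genes alone, 1519 of the 8760 with a cluster held a member, a somewhat higher share. RNA levels were not measured here, so abundance was not separated from binding. Translation factors and poly(A) binding proteins stood at 23 of 32 genes (71.9%), with EEF2, PABPC1, EIF4E and EIF4G2 leading. EIF4E, the cap-binding protein, had 1066, 469, 371, 564 and 245 reads in its strongest member.

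RNA-binding proteins stood at 33 of 50 genes (66.0%), with PCBP1, SERBP1, NCL and SRSF6 leading. PCBP1, a poly(C)-binding protein, had 1068, 495, 431, 541 and 264 reads. Cytosolic chaperones stood at 16 of 25 genes (64.0%), where HSP90AA1 had 2113, 1045, 1012, 361 and 231 reads, and the mitochondrial chaperonin HSPD1 1733, 766, 976, 256 and 127. Glycolysis stood at 12 of 19 genes (63.2%), led by LDHA, lactate dehydrogenase, with 1311, 747, 674, 273 and 173 reads.

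Described IGF2BP targets, together with the family itself, stood at 9 of 15 genes (60.0%). Those with members included HMGA1, PABPC1, CCND1, HMGA2, CDK6 and CD44. CDK6, a cyclin-dependent kinase, had 773, 173, 152, 237 and 36 reads in its strongest member. IGF2BP1, IGF2BP2 and IGF2BP3 held no member.

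Cytoskeletal genes stood at 20 of 34 (58.8%), led by ACTG1, EZR, TUBA1B and CAPZA1. TUBA1B, an alpha-tubulin, ran against the depth of the libraries, with 1566 reads in RNase I 0.05/0.05 and 2003 and 2036 in the other RNase I libraries. The latter counts are of whole overlapping clusters, which can reach past this member of 201 nt, and the part of this was not tested. ER folding and secretion stood at 22 of 41 genes (53.7%), with P4HB, protein disulphide isomerase, at 2069, 790, 800, 324 and 178 reads and the lectin chaperone CANX at 1829, 936, 682, 469 and 218. Cytosolic ribosomal proteins stood at 38 of 79 genes (48.1%). RPL15 led them with 1362, 543, 404, 672 and 169 reads, and RPL39 had 816, 264, 270, 49 and 13.

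Nearer to the share of all genes stood the lists of epithelial adhesion (11 of 29, 37.9%), amino acid transporters (4 of 13, 30.8%), iron and cholesterol (5 of 20, 25.0%), nuclear-encoded respiratory chain (14 of 67, 20.9%) and cell cycle (6 of 29, 20.7%). Within them DSG2, a desmosomal cadherin, had 1630, 590, 454, 657 and 141 reads. SLC7A5, a large neutral amino acid transporter, had 1326, 499, 403, 429 and 72, and SCD, the stearoyl-CoA desaturase, had 1409, 529, 413, 712 and 139. Replication-dependent histones, whose mRNAs are not polyadenylated, held no member in 20 genes with a cluster.

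RNase T1 and RNase I weighed the members differently, and the difference moved with G content. The log2 ratio of CPM of RNase T1 1/1 over RNase I 0.05/0.05, both electroeluted, had a median of -0.23 over members and ran from -4.63 to 2.68. Members were selected on reads in its denominator, which can lower this ratio, and the part of that selection was not tested. With the members in 4 groups of equal size, from least to most G, the median of this ratio was 0.35, -0.13, -0.42 and -0.78. RNase T1 0.25/0.25 over RNase I 0.05/0.025, both from crushed gel, fell likewise, with medians of 0.53, 0.18, 0.00 and -0.32. Over all members the median of this second ratio was 0.10, of opposite sign to the first. The order of the groups was the same in both ratios, which share no library. Across the 2923 members, Spearman's rho with G content was -0.402 and -0.329, and members share libraries and, in part, sequence.

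**Figure D5:**
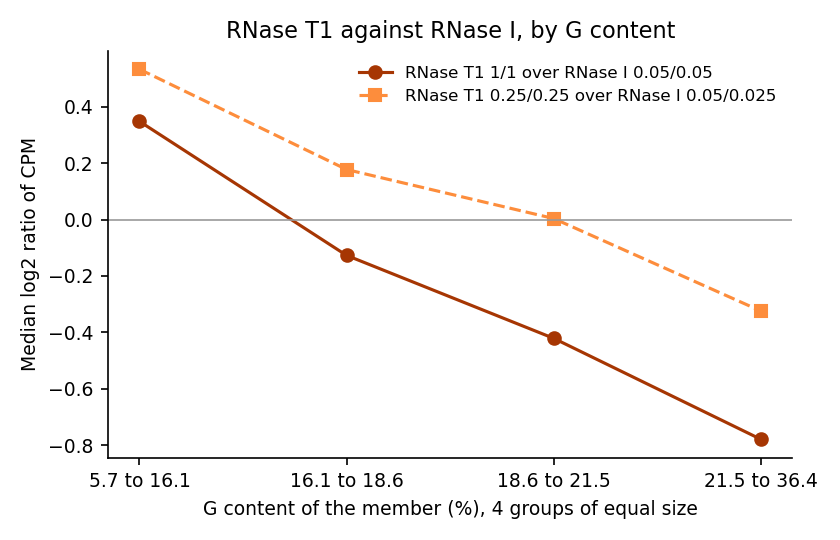
Median log2 ratio of CPM, RNase T1 over RNase I (vertical axis), in 4 groups of members by G content (horizontal axis, %), for the electroeluted pair and the crushed-gel pair of libraries. Both fall from the group with least G (0.35 and 0.53) to that with most (-0.78 and -0.32).

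At the extremes, a member of RPL23, a ribosomal protein gene, counted 405 reads with RNase I 0.05/0.05 but 8 with RNase T1 1/1 (-4.63). Of its 44 nt, 13 lay in coding sequence. It was low in RNase T1 0.25/0.25 as well, with 7 reads against 187 in RNase I 0.05/0.025. ATG12, an autophagy conjugation factor, had 393 and 10 reads in the electroeluted pair, and no nucleotide of its member was covered in all 5 libraries. In the other direction, a member of PTP4A1 at chr6:63580931-63581135, directly downstream of its strongest member, counted 112 with RNase I 0.05/0.05 but 352 with RNase T1 1/1 (2.68). Neighbouring members on 1 UTR thus stood on opposite sides, since the stronger PTP4A1 member had a ratio of -0.27.

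T-to-C conversion in the members was close to that of other clusters. The median number of conversion events per read was 0.640 in RNase I 0.05/0.05 (quartiles 0.596 and 0.679), 0.649 in RNase I 0.1/0.025, 0.600 in RNase I 0.05/0.025, 0.521 in RNase T1 1/1 and 0.556 in RNase T1 0.25/0.25. Among clusters of 10 or more reads, those overlapping members minus the rest gave 0.006, -0.002, -0.005, 0.018 and 0.015 in that order. The mean difference was 0.006, and 3 of 5 libraries were higher. An exact two-sided sign-flip test over the 5 libraries gave p = 0.3125, where 0.062 is the smallest p that 5 libraries allow. A difference was thus not detected, and this design could not have reached 0.05.

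The study's own target criterion, over 10 CPM and over 0.5 conversions per read, was applied to the strongest overlapping cluster. It was met by 96.6% of members in RNase I 0.05/0.05, 91.0% in RNase I 0.1/0.025 and 82.9% in RNase I 0.05/0.025, but by 46.9% in RNase T1 1/1 and 56.1% in RNase T1 0.25/0.25. In all 5 libraries it was met by 769 members (26.3%), and in none by 39. CPM passed in 94.6% of members or more in every library, but members were selected on reads. In RNase I 0.05/0.05 the read minimum already meant 42.3 CPM or more. In RNase T1 0.25/0.25 the lowest count at a member, 2 reads, was already 10.96 CPM. The level part could thus not fail in either library. Conversion passed in 91.2% of members in RNase I 0.1/0.025, 82.9% in RNase I 0.05/0.025 and 50.3% in RNase T1 1/1. These shares were not compared with those of other clusters.

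Mitochondrial members had low conversion. The 27 mitochondrial members (0.924%, against 0.097% of all clusters) had medians of 0.569, 0.424, 0.413, 0.460 and 0.319 conversion events per read in the order above, below those of 3′UTR members in each library. MT-ND1, a subunit of respiratory complex I, had 3179, 3872, 4577, 934 and 737 reads with 0.179, 0.072, 0.067, 0.242 and 0.081 events per read. It therefore fell short of the target criterion in every library in spite of its reads.

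The 17 members on nuclear tRNA genes (RefSeq names) had medians of 0.460, 0.400, 0.364, 0.379 and 0.524, the last within the range of the other nuclear classes of members. Single tRNA members ranged widely. TRX-CAT1-5 and TRX-CAT1-1 had the highest values of all members, 1.489 and 1.452, and stood at 1.24 or more in every other library too. TRN-GTT2-5 stood at 1.152, while TRU-TCA1-1, the selenocysteine tRNA, stood at 0.185. The next highest member outside tRNA and unnamed loci lay in the 3′UTR of ABR at 1.160.

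IgG reads were few but touched some of these. Of the 25 IgG clusters, 20 overlapped 17 members (0.582%), with 5 to 50 IgG reads each, and the other 2906 members had none. Among 3′UTR members, 8 were touched, including those of HMGA1 (8 IgG reads against 2795 in the IGF2BP3 library of the same RNase dose), CYB5B (9 against 2368) and PTP4A1 (8 against 2415). On tRNA the ratio was smaller. TRN-GTT2-5 had 19 IgG reads against 37, a ratio of 1.95, TRR-CCG2-1 had 41 against 151, and TRX-CAT1-1 had 30 against 172. In all, 4 of 17 tRNA members (23.5%) overlapped an IgG cluster, and these included 3 of the 5 highest conversion values.

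Long non-coding RNAs held 39 members. SNHG1, a snoRNA host gene, had 1995, 1336, 1209, 521 and 372 reads, SNHG16 had 1842, 747, 693, 365 and 186, and UCA1 had 827, 285, 278, 299 and 83. RNY1, a Y RNA, had 692, 321, 410, 317 and 119. LINC01106 and LINC01123 showed near-equal counts, 1232 and 1216 in RNase I 0.05/0.05 and 551 each in RNase I 0.1/0.025.

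Such near-equal counts marked copies. In 373 members (12.8%), 50% or more of the 20-nt words also stood in another member, and 475 members (16.3%) fell into 186 families of copies. Counted once per family, there were 2634 members, of which 88.3% overlapped a 3′UTR. The largest family, 11 members, joined PABPC1 with PABPC3 and PABPC1 pseudogenes, and reads of PABPC1, the cytoplasmic poly(A) binding protein (3415, 2100, 2227, 563 and 700 in its strongest member), are uncertain for that reason. A coding pair, POM121 with 2088, 776, 677, 689 and 248 reads and POM121C with 1942, 710, 604, 660 and 248, belongs to duplicated nucleoporin genes. Of the 207 members on no annotated exon, 171 (82.6%) were in a family and 159 (76.8%) had a copy on an exon, 105 lay on a RefSeq pseudogene and 17 on a tRNA gene. How reads were shared out among such copies was not tested.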

How the data were processed

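After demultiplexing (bcl2fastq 2.20.0.422), the authors extracted UMIs (UMI-tools 1.1.1), trimmed reads by size and quality (Trimmomatic 0.30), aligned them to GRCh38.p13 (Bowtie 0.12.7), removed UMI duplicates and ran PARalyzer library by library to obtain clusters. The deposited tables give, per cluster, counts of reads, conversion events and non-conversion events. The deposited mode score, a fraction, was not used. Only called clusters are listed, so a cluster that is missing may still have had reads.

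Members and gene lists were chosen with earlier results of these data known. Clusters were intersected by strand with pandas 2.3.3 and numpy 2.4.6 in Python 3.11.15. All cluster sequences were checked against the genome read by pysam 0.24.0 and samtools 1.23.1. Reads of another library at a member are whole-cluster reads of every overlapping cluster, so 6199 clusters of RNase I 0.1/0.025 entered 6343 member pairings. CPM is per 1000000 cluster reads of the library. Annotation was GENCODE 44, and gene types off exons came from RefSeq. The canonical transcript gave 3′UTR positions. Copies share 50% or more of their words of 20 nt with another member. Intervals (95%) and the sign-flip test used scipy 1.17.1. Genes were named by rank in reads, in members per gene, in lowest CPM, in conversion, in the enzyme ratio and by list. POM121, POM121C, TRU-TCA1-1, TRR-CCG2-1, MT-ND1 and the non-coding genes were chosen after their values were seen. The overlap rule was tested on 2000 simulated clusters and recovered all 809 simulated members.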

Additional observations from a re-analysis of the deposited data

How the results depend on the processing

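With 1 library per condition, spread between replicates is unknown, and no paired analysis was possible because each condition has 1 library. Of 114 alternatives over 10 results, 84 stayed within the interval of the value (for counts, within 1.5 times) and 30 moved. Only the conversion difference could change sign, and it did not. The other results are counts, shares or medians that are always positive. A minimum of 50 reads gave 4747 members with 45.8% of reads, CAUU in 21.0% of mode windows and a median length of 203 nt. A minimum of 200 reads gave 1430 members on 950 genes with 31.3% of reads, modes within 5 nt in 15.9% and 346 nt. An overlap of 20 nt left 40.1% of reads in members. Not requiring 1 of the other libraries in turn gave 2924 to 3466 members, and 40.2% to 43.5% of reads, the highest without RNase T1 0.25/0.25, with 1662 to 1870 genes. The 3′UTR share was 63.4% with coding sequence first and 76.3% at the mode. Shared modes stood at 6.02% with a tolerance of 0 nt, 18.5% with 10 nt, and 21.9% with the nearest mode. Conversion over all T readings was a fraction of 0.0765, another unit. CAUU stood in 6.16%, 32.9% and 33.3% of windows of 10 nt and 40 nt on each side of the mode and at the midpoint, and CAGU in 8.35%, 35.2% and 28.5%. The midpoint windows and the next 3 changes were chosen after seeing the data. Without members that overlap IgG clusters, 39.0% of reads remained in members. With 1 member per family of copies, reads were 37.0%, the 3′UTR share 88.3%, shared modes 11.6% and median length 275 nt. Without mitochondrial members, 39.1% of reads were in members. The conversion difference was 0.009 at 20 or more reads (exact sign-flip p = 0.375) and 0.015 at 50 or more (p = 0.5). RNase T1 0.25/0.25, the shallowest library, with a median of 22 reads at a member, set most of the limit on membership.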
